A study of Mus musculus with 63 samples.

Results

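The EGF ligand and MAPK feedback genes described here were 10 genes chosen by name of 54752 in the count tables of a mouse intestinal RNA-seq series. They were the ligands Areg, Ereg, Hbegf and Tgfa, the receptors Egfr and Erbb3, the feedback inhibitors Dusp6, Spry2 and Spry4, and the transcription factor gene Etv5. All 10 were found in every table under 1 gene ID each. Areg, which encodes amphiregulin, was the member whose level moved in most comparisons. After 4-OHT in standard medium it rose 4.33-fold at day 3 and fell at day 5. Its day 10 fall there came from overlapping groups, and the call was lost in some fits that left out 1 library. At day 10 in Wnt3-conditioned medium (Wnt3-CM) Areg fell to 0.213 of its EtOH level, which was itself higher than in standard medium. Dusp6, Hbegf, Spry4 and Egfr fell in Wnt3-CM too.

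Ligands of the EGF family are made as membrane-anchored precursors and are released by proteases at the cell surface. They bind receptors of the ERBB family, which pair with each other and switch on the RAS-RAF-MEK-ERK kinase cascade. ERK activity is transcribed into its own brakes, among them the dual-specificity phosphatase DUSP6, which removes phosphate from ERK, and the Sprouty proteins, which act between receptor and RAF. The ETS factor genes of the Etv group and several ligand genes are also among the transcripts that ERK activity raises. In the small intestine EGF is supplied by the crypt niche and sustains stem and progenitor proliferation, and it is a standard component of organoid medium.

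The samples were small intestinal organoids and small intestinal epithelial cells (IECs) of C57BL/6 strain mice, 3 libraries in each of 19 groups. CDK8 and CDK19 are the paralogous kinases of the Mediator complex, a coactivator of RNA polymerase II. VillinCreERT2 is a tamoxifen-activated Cre recombinase driven by the villin promoter, which is active in the gut epithelium. Organoids received 100 nM 4-hydroxytamoxifen (4-OHT) or EtOH vehicle, and the medium held EGF, Noggin and R-Spondin. At day 7 after 4-OHT there were 5 lines: VillinCreERT2, C57BL/6 without Cre, CDK8iIEC-KO (VillinCreERT2; Cdk8 fl/fl), Cdk8 fl/fl; Cdk19 ko/ko without Cre (named Cdk8 fl/fl/Cdk19-/- here) and CDK8iIEC-KO/Cdk19-/- (VillinCreERT2; Cdk8 fl/fl; Cdk19 ko/ko). A time course followed a VillinCreERT2; Cdk8 fl/fl; Cdk19 ko/ko line on day 3, day 5, day 7 and day 10 of EtOH or 4-OHT, so the EtOH libraries were labelled as lacking Cdk19 too. The same genotype was taken at day 10 in Wnt3-CM, and VillinCreERT2; Cdk8 fl/fl; Cdk19 ko/D173A organoids, whose remaining Cdk19 allele encodes a kinase-dead protein, at day 7. IECs came from VillinCreERT2 and VillinCreERT2; Cdk8 fl/fl; Cdk19 ko/ko mice 14 days after the last dose of tamoxifen at 80 mg/kg. Each organoid group was 1 line, and the labels name no separate cultures, so p-values measure the spread between libraries, which may be technical. The time course, the Wnt3-CM organoids and the Cdk19 ko/D173A organoids had no 4-OHT-treated group with Cre and no floxed allele. In none of them can 4-OHT, Cre activation and loss of CDK8 be told apart.

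Libraries held 15485959 to 32909565 counts. The counts of the targeted genes, given for the whole gene and not by exon, gave no check of the labels, and groups are called by those labels. Cdk8 did not fall by the call rule used below in any of 10 comparisons of groups labelled with its deletion against their controls, at log2 fold changes from -0.19 to 0.14, and the deleted part itself was not measured. Cdk8 lay at 34.2 to 83.1 CPM (TMM-scaled counts per 1000000) in the 9 groups with Cre, floxed Cdk8 and 4-OHT or tamoxifen and at 38.5 to 70.6 CPM in the 6 EtOH groups, and Cdk19 at 15.1 to 60.0 CPM in the 13 Cdk19 ko/ko groups and 17.5 to 34.5 CPM in the 4 wild-type groups. All 8 epithelial markers were detected, summing to 6897 to 13647 CPM in organoids and 8987 to 10985 CPM in IECs. Immune and mesenchymal markers summed to 1.76 to 7.47 CPM and 2.44 to 15.2 CPM in organoids, apart from a mesenchymal sum of 47.0 CPM in replicate 2 of EtOH day 7, while in IECs they reached 1716 CPM and 974 CPM. Sums of Paneth markers ranged from 859 to 8484 CPM, of goblet markers from 1728 to 5469 CPM, of tuft markers from 1.17 to 44.5 CPM, of enteroendocrine markers from 8.23 to 775 CPM, of stem markers from 430 to 3360 CPM, of proliferation markers from 412 to 1197 CPM and of enterocyte markers from 2748 to 40388 CPM over the organoid libraries. In such bulk libraries fewer cells of a type and less RNA per cell cannot be told apart.

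The upstream bases of 4 members are shown because their levels carry the comparisons: Areg and Tgfa as ligands and Egfr as receptor, which rose together at day 3, and Dusp6 as the feedback gene that fell in Wnt3-CM and in CDK8iIEC-KO organoids. RefSeq promoter entries on GRCm38.p6 were matched by symbol for 6 of the 10 members. Each sequence is the 250 bases before the start site, 5' to 3' on the gene's strand. Capitals mark the cyclic AMP response element TGACGTCA, the TATA box TATAAA and the binding motif of Sp factors, GGGCGG, searched on both strands.
Areg (chr5:91139349-91139598, plus strand): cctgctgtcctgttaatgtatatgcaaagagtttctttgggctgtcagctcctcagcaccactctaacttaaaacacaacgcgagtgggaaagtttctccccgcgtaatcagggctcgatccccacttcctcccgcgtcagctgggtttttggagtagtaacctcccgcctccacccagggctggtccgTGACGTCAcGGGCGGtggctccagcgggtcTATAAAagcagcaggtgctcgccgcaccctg
Tgfa (chr6:86194972-86195221, plus strand): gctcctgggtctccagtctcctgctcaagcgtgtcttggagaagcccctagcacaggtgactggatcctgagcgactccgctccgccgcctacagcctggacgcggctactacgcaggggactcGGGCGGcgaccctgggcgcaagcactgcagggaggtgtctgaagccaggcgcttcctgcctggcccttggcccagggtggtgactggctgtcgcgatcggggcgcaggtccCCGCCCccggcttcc
Egfr (chr11:16751953-16752202, plus strand): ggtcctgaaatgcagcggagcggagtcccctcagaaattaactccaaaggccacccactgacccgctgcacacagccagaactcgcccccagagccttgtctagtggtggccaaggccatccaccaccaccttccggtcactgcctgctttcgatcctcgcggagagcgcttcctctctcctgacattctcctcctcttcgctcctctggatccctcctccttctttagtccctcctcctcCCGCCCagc
Dusp6 (chr10:99262981-99263230, plus strand): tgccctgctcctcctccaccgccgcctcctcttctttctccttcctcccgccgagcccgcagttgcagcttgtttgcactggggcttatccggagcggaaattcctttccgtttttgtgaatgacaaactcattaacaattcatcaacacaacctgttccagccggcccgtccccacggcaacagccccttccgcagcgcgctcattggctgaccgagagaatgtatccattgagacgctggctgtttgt

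Positions are counted from the start site, with -1 the last base before it. The Areg window held TGACGTCA at -61 to -54, GGGCGG at -52 to -47 and TATAAA at -31 to -26. Of 32851 promoter windows of the same length, 1.55% held TGACGTCA, 12.4% held TATAAA and 32.7% held GGGCGG. Of the 7 windows of the members, 1 held TGACGTCA, 1 held TATAAA and 4 held GGGCGG. Tgfa had GGGCGG at -126 to -121 and, on the other strand, at -15 to -10, and Egfr had it on the other strand at -9 to -4. These motifs were searched after a first set had no match in any of the 7 windows: TGAATGAA (1.08% of all windows) and TGAATGGA (1.01%), bound by the ERK-regulated repressor Capicua, the ETS motif CCGGAAGT (2.88%) and the AP-1 motif TGACTCA (4.46%). The Dusp6 window held no motif of either set and carries no capitals. The printed windows held 11 to 19 CpG dinucleotides, against a median of 6 over all windows. A match is a description of letters, and no match says only that these letters are not in this window.

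All 10 members are protein-coding genes. On GRCm38 with GENCODE vM21, Areg spans chromosome 5, 91139599 to 91148432, and Ereg lies upstream of it on the same strand at 91074622 to 91093646. Egfr spans chromosome 11, 16752203 to 16918158, Tgfa chromosome 6, 86195223 to 86275719, and Dusp6 chromosome 10, 99263231 to 99267489. Erbb3 lies on chromosome 10 at 128567523 to 128589652, Spry2 on chromosome 14 at 105891947 to 105896819 and Etv5 on chromosome 16 at 22381309 to 22439719. Egfr and Ereg overlap the antisense genes Egfros and Gm19610, and Tgfa and Spry4 overlap short genes on the opposite strand. The use of strand in counting is not given in the sources used here, so reads of such pairs cannot be told apart.

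Levels per length were compared as CPM per kb of exonic length. In EtOH organoids of the time course at day 7, Erbb3, a receptor without strong kinase activity of its own that signals through its partners, stood highest at 38.0 ± 3.45 CPM per kb (SD, n = 3), and Areg followed at 33.5 ± 3.12 CPM per kb. These leading values overlapped within their SDs. Spry2 (16.3 ± 0.59) and Dusp6 (14.3 ± 1.74) came next and also overlapped in CPM per kb. Tgfa followed at 8.33 ± 0.429, then Etv5 at 5.68 ± 0.365 CPM per kb. Egfr (2.40 ± 0.0989) and Hbegf (2.38 ± 0.0739) could not be ranked, and Spry4 was at 0.549 ± 0.00739 CPM per kb. Ereg had 0 counts in the 12 EtOH libraries of this line, and 2 counts in 1 library among the 12 with 4-OHT. In VillinCreERT2 IECs the order differed: Erbb3 was at 85.0 ± 9.74, Dusp6 at 26.9 ± 8.06, Areg at 8.40 ± 3.26 and Etv5 at 0.490 ± 0.138 CPM per kb. Levels across separate tables were set side by side without a test.

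In the time course, the question was how the members followed loss of CDK8 in organoids labelled as lacking Cdk19. At day 3 Areg, Egfr and Tgfa rose after 4-OHT, while Areg was the sole member called at day 5 and day 10, when it fell, and Erbb3 the sole one at day 7, when it rose. A gene was called changed where its adjusted p over all genes tested was under 0.05 and its fold change over 1.5. Of 9 members tested (Ereg was too low), 3 rose and 0 fell at day 3, where 12.4% of all 15447 genes were called and 6.42% rose. At day 5, 1 member fell, beside 13.2% of genes called and 4.62% that fell. At day 7, 1 rose, beside 18.3% called and 9% that rose, and at day 10, 1 fell, beside 15.8% called and 6.92% that fell. The median log2 fold change of the tested members was 0.48 at day 3, 0.00 at day 5, 0.06 at day 7 and -0.33 at day 10, beside medians of -0.02, 0.00, -0.01 and 0.02 over all genes.

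Areg stood at 24.2, 30.4 and 27.6 CPM in the EtOH libraries of day 3 and at 121, 121 and 113 CPM after 4-OHT. The 4-OHT libraries were thus all far above the EtOH libraries, with a log2 fold change of 2.11 ± 0.18 (SE, n = 3, edgeR quasi-likelihood F test, adjusted p = 2.92e-08). By day 5 the order was turned: EtOH libraries lay at 50.4, 45.1 and 59.6 CPM and 4-OHT libraries at 25.8, 27.6 and 21.0 CPM. That fall was -1.06 ± 0.18 on the log2 scale (adjusted p = 0.000168). At day 7 the groups overlapped, with 36.5, 41.9 and 43.8 CPM in EtOH and 25.4, 35.9 and 38.2 CPM in 4-OHT (log2 fold change -0.30 ± 0.18, adjusted p = 0.193). At day 10 EtOH libraries spread from 23.5 through 34.4 to 41.8 CPM and the 4-OHT libraries were at 20.2, 24.3 and 18.4 CPM. The day 10 fall of -0.67 ± 0.19 (adjusted p = 0.00705) came from overlapping groups. Its call was lost without replicate 3 of EtOH (-0.47, adjusted p = 0.0523) or replicate 3 of 4-OHT (-0.58, adjusted p = 0.0371, fold under the cutoff).

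The change of the Areg response between days was itself tested. From day 3 to day 5 the response to 4-OHT fell by 3.17 ± 0.25 on the log2 scale (edgeR, adjusted p = 3.17e-08), and from day 3 to day 10 it fell by 2.78 ± 0.26 (adjusted p = 6.18e-08). From day 5 to day 7 it rose by 0.76 ± 0.25 (adjusted p = 0.0431). This last call depended on the fit: adjusted p was 0.086 without the filter on low counts and 0.0601 with upper-quartile scaling, and it was lost in 9 of 12 fits that left out 1 library, the adjusted p then lying between 0.0511 and 0.118. Areg also moved without 4-OHT, since EtOH libraries rose from day 3 to day 5 by 0.92 ± 0.18 (adjusted p = 0.000682). Of the 9 members, 1 rose between these EtOH days, beside 12% of genes called and 2.82% that rose. Between EtOH days 5 and 7, 0 of 9 were called by edgeR or by DESeq2 (1 at an unadjusted p under 0.05), beside 0.57% of genes called and 17.5% at that unadjusted p. Between days 7 and 10, 0 of 9 were called by both tools (5 at an unadjusted p under 0.05), beside 23.3% called and 58.6% at that p.

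Tgfa encodes transforming growth factor alpha, another EGFR ligand. Its levels at day 3 were 41.9, 42.3 and 40.5 CPM in EtOH and 65.2, 68.8 and 63.7 CPM in 4-OHT, with no overlap. The log2 fold change was 0.66 ± 0.07 (edgeR, adjusted p = 1.06e-08). At day 5 and day 10 the Tgfa groups overlapped (log2 fold changes 0.00 and -0.05), and at day 7 the 4-OHT libraries, at 63.6, 75.2 and 69.6 CPM, were above EtOH at 57.2, 52.1 and 52.7 CPM. That difference, 0.36 ± 0.07, had an adjusted p of 7.47e-05 and a fold under 1.5. Hbegf, which encodes heparin-binding EGF, showed the same shape at lower levels: at day 3 it was at 15.7, 16.8 and 16.8 CPM in EtOH and 23.6, 26.1 and 22.6 CPM in 4-OHT. Its log2 fold change of 0.55 ± 0.11 (adjusted p = 0.000316) stayed just under the fold cutoff and passed it with upper-quartile scaling (0.59) and without replicate 3 of 4-OHT (0.61). At day 7 Hbegf was again higher in every 4-OHT library, at 15.6, 16.6 and 14.5 CPM against 11.3, 11.3 and 11.9 CPM (0.44 ± 0.12, adjusted p = 0.0037).

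The receptor gene Egfr followed the ligands at day 3. EtOH libraries lay at 25.0, 25.3 and 27.5 CPM and 4-OHT libraries at 42.6, 43.5 and 40.6 CPM, which did not overlap. The log2 fold change was 0.70 ± 0.08 (edgeR, adjusted p = 1.2e-07). By day 10 the order had turned, with EtOH at 38.0, 33.9 and 30.3 CPM and 4-OHT at 25.7, 22.3 and 25.8 CPM. That difference, -0.47 ± 0.09, had an adjusted p of 4.46e-05 and a fold under 1.5, and the change of the Egfr response from day 3 to day 10, -1.17 ± 0.12, passed the test (adjusted p = 3.95e-09). Erbb3 ran the other way. It was lower after 4-OHT at day 3, with 223, 245 and 234 CPM against 298, 323 and 313 CPM (-0.41 ± 0.11, adjusted p = 0.00355, fold under 1.5). At day 7 it was higher, with 393, 408 and 317 CPM against 222, 252 and 212 CPM. The day 7 rise was 0.71 ± 0.11 (adjusted p = 7.77e-06) and was 0.77 without the EtOH library whose mesenchymal marker sum was 47.0 CPM. The Erbb3 response rose by 0.75 ± 0.15 between days 3 and 5 (adjusted p = 0.000398) and fell by 0.67 ± 0.15 between days 7 and 10 (adjusted p = 0.0032).

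The feedback inhibitors were not called on any day. Dusp6 was lower in every 4-OHT library at day 3, at 42.4, 40.2 and 37.8 CPM against 55.8, 47.4 and 48.2 CPM, a difference of -0.33 ± 0.12 (edgeR, adjusted p = 0.0293). At day 10 its 4-OHT libraries spread widely, at 50.5, 41.9 and 31.4 CPM, below EtOH at 62.1, 54.4 and 53.4 CPM. That difference was -0.46 ± 0.12 (adjusted p = 0.00219), and it passed the fold cutoff without replicate 1 of 4-OHT (-0.63). Spry2 was higher after 4-OHT at day 7, at 47.1, 46.5 and 39.9 CPM against 34.6, 35.0 and 32.7 CPM (0.38 ± 0.08, adjusted p = 0.000218, fold under 1.5). Spry4 stayed between 1.32 and 4.01 CPM throughout, with log2 fold changes from -0.33 to 0.48 and adjusted p from 0.108 to 0.596. In EtOH libraries Spry2 fell from 38.8, 35.0 and 37.4 CPM at day 3 to 24.7, 24.6 and 23.3 CPM at day 10. That fall, -0.61 ± 0.08 (adjusted p = 1.67e-07), was the only member call among 9 between these days, when 38.4% of genes were called and 22.4% fell, and it was -0.58 and under the fold cutoff without replicate 3 of EtOH day 10.

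For Etv5, an ETS family transcription factor gene, the order of the groups turned between days 3 and 5. At day 3 the 4-OHT libraries were slightly higher, with 24.5, 26.8 and 27.9 CPM against 22.3, 22.6 and 23.0 CPM (0.22 ± 0.09, edgeR, adjusted p = 0.0603). At day 5 they were lower, with 17.5, 18.1 and 20.7 CPM against 25.2, 21.7 and 23.5 CPM (-0.32 ± 0.09, adjusted p = 0.00738), and at day 7 the difference was -0.38 ± 0.09 (adjusted p = 0.00134), both under the fold cutoff. At day 10 they were again lower, with 16.3, 15.7 and 14.0 CPM against 21.7, 23.6 and 22.5 CPM. The day 10 difference of -0.56 ± 0.10 (adjusted p = 1.78e-05) was under the fold cutoff, which it passed without replicate 1 of EtOH (-0.59) or replicate 1 of 4-OHT (-0.61). The change of the Etv5 response from day 3 to day 10 was -0.78 ± 0.13 (adjusted p = 1.6e-05). Its steps were -0.54 ± 0.13 from day 3 to day 5 (adjusted p = 0.0016, fold under 1.5), -0.06 ± 0.13 from day 5 to day 7 (adjusted p = 0.799) and -0.18 ± 0.13 from day 7 to day 10 (adjusted p = 0.387).

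**Figure D1:**
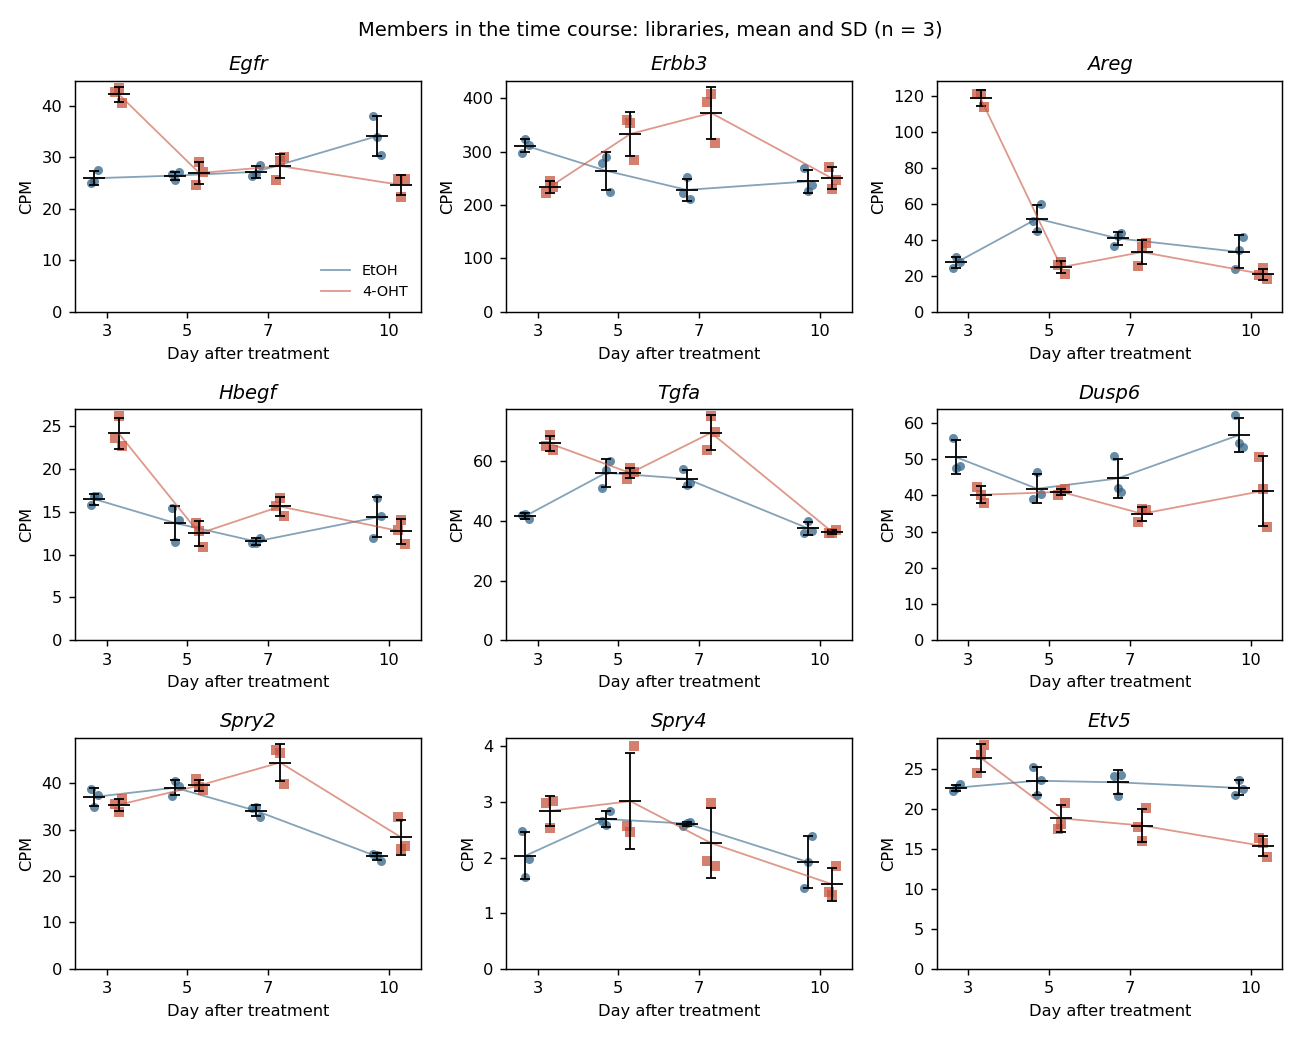
CPM of the 9 members with counts in the VillinCreERT2; Cdk8 fl/fl; Cdk19 ko/ko line (vertical axis) by day after treatment (horizontal axis). Circles are EtOH libraries, squares are 4-OHT libraries, and bars are the mean and SD of 3 libraries; Areg, Egfr, Tgfa and Hbegf are all higher in 4-OHT at day 3, and Erbb3 is higher at day 7.

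Across the responses, 5 of 9 members differed between day 3 and day 5, when 20.2% of genes did: Areg, Egfr, Hbegf and Tgfa fell and Erbb3 rose. Between days 3 and 10, 5 of 9 fell (Areg, Egfr, Etv5, Hbegf and Tgfa) beside 26.3% of genes called and 12.4% that fell. Spry4, at -0.81 ± 0.34 (edgeR, adjusted p = 0.0537), was called too with upper-quartile scaling (-0.86, adjusted p = 0.0397), with only these groups fitted (-0.83) and without replicate 1 of EtOH day 3 (-0.98), replicate 2 of 4-OHT day 3 (-0.89), replicate 1 of EtOH day 10 (-0.98) or replicate 3 of 4-OHT day 10 (-0.98). Between days 5 and 7, 1 of 9 rose, beside 8.81% of genes called and 3.8% that rose, and between days 7 and 10, 2 of 9 fell, beside 6.41% called and 3.42% that fell. The fall of the Hbegf response between days 7 and 10, -0.61 ± 0.17 (adjusted p = 0.0128), was not called without replicate 2 of 4-OHT day 7 (-0.55), replicate 2 of EtOH day 10 (-0.50) or replicate 3 of 4-OHT day 10 (-0.53). These comparisons share libraries and are not independent of each other.

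The cell type markers moved with the same samples. At day 3 the 8 enterocyte markers summed to 2748 to 3116 CPM in 4-OHT and 8751 to 9991 CPM in EtOH. The 8 epithelial markers were lower then too, at 8126 to 8386 CPM against 9096 to 9722 CPM. At days 5 to 10 the 8 Paneth markers summed to 1894 to 2977 CPM in 4-OHT and 5023 to 8484 CPM in EtOH. The 6 stem markers at day 3 were at 2318 to 2394 CPM in 4-OHT and 1908 to 1924 CPM in EtOH, at day 5 at 1037 to 1193 CPM and 1659 to 2309 CPM, at day 7 at 700 to 1080 CPM and 1976 to 2373 CPM, and at day 10 at 1603 to 1818 CPM and 3113 to 3360 CPM. Proliferation markers were higher after 4-OHT at day 3, at 847 to 905 CPM against 728 to 796 CPM, and lower without overlap on the later days, at 630 to 674 CPM against 1042 to 1104 CPM at day 10. Tuft sums were lower on every day, at 10.5 to 13.7 CPM against 18.9 to 22.1 CPM at day 3. Enteroendocrine sums were at 26.0 to 27.7 CPM against 28.7 to 33.5 CPM at day 3 and 12.2 to 16.2 CPM against 18.2 to 24.4 CPM at day 5. They overlapped at day 7 and were at 8.63 to 9.81 CPM against 10.6 to 12.2 CPM at day 10. Mesenchymal sums at day 3, mostly of markers under 1 CPM, were at 2.44 to 4.44 CPM against 10.9 to 13.1 CPM. Goblet sums at days 5 to 10 were at 2030 to 2880 CPM in 4-OHT and 3202 to 3834 CPM in EtOH. At day 5, when Areg fell, enterocyte sums were at 10265 to 10761 CPM in 4-OHT and 12064 to 19810 CPM in EtOH, and at day 7, when Erbb3 rose, they overlapped and epithelial sums were at 9160 to 9683 CPM and 7504 to 7965 CPM. At day 10 enterocyte sums were higher, at 16611 to 21925 CPM against 12550 to 16171 CPM, and the 8 epithelial markers were at 9186 to 10120 CPM against 8336 to 8692 CPM. The part of these cell types in the members' changes was not tested.

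Other genes of the pathway were read from 5 lists with 58 genes, 51 of them tested in the time course. At day 3, 12.4% of all genes were called and 6.42% rose. Among 15 tested ERK feedback and output genes, with a median log2 fold change of 0.53, 7 rose and 0 fell at that day. They included Fosl1, an AP-1 subunit gene, at 2.01 ± 0.18 (edgeR, adjusted p = 4.25e-10), and the ephrin receptor genes Epha4 (1.20 ± 0.12) and Epha2 (1.17 ± 0.09). Of the 3 tested EGF family ligands outside the members, 1 rose and 1 fell: Nrg4, a neuregulin that signals through ERBB4, fell by 2.52 on the log2 scale. Among 8 receptors and receptor regulators 0 rose and 1 fell, Erbb2 (-0.65 ± 0.08). Of 19 genes of the RAS-ERK cascade 0 rose and 1 fell, the scaffold gene Ksr1 (-0.59 ± 0.09), and of 6 sheddase and trafficking genes, which release or ferry the ligands, 0 were called by edgeR and 2 had an unadjusted p under 0.05, as had 42.9% of all genes. At day 5 the sole change over the 5 lists was Nrg4 (-0.83 ± 0.17), beside 13.2% of all genes called. At day 7 it was Dusp7, an ERK phosphatase gene (-0.67 ± 0.14), beside 18.3% of all genes. At day 10 there were 5 falls and 0 rises, beside 15.8% of all genes called and 6.92% that fell. Among these falls were Dusp4 (-0.82 ± 0.07), Etv4 (-0.70 ± 0.10) and Dusp7 (-0.64 ± 0.15).

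Wnt3-CM supplies a Wnt ligand that Paneth cells make in the crypt. Organoids of the time course genotype were cultured in it to day 10, and 5 of 9 tested members fell after 4-OHT, with 0 rises. Of 13745 genes tested there, 16.9% were called and 7.42% fell. The members' median log2 fold change was -0.92, beside 0.00 over all genes. The 5 were Areg, Dusp6, Hbegf, Spry4 and Egfr, and none of these calls was lost when any 1 library was left out. The columns of these libraries were tied to their groups by name, not by replicate.

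Areg fell from 308, 361 and 339 CPM in EtOH to 77.1, 63.8 and 73.5 CPM in 4-OHT. The groups were far apart, with a log2 fold change of -2.23 ± 0.08 (edgeR, adjusted p = 9.37e-15). Dusp6 fell from 217, 227 and 222 CPM to 91.2, 78.7 and 75.8 CPM. Its log2 fold change was -1.44 ± 0.07 (adjusted p = 7.63e-13). Hbegf, at 38.0, 50.6 and 45.9 CPM in EtOH, was at 17.6, 15.7 and 17.8 CPM in 4-OHT, a log2 fold change of -1.40 ± 0.10 (adjusted p = 7.14e-10). Spry4 went from 6.36, 7.14 and 7.53 CPM to 3.28, 3.94 and 3.24 CPM (-1.01 ± 0.15, adjusted p = 1.43e-05). For Egfr the levels were 61.8, 75.2 and 63.2 CPM in EtOH and 31.4, 38.3 and 36.1 CPM in 4-OHT (-0.92 ± 0.09, adjusted p = 5.05e-08). Tgfa (-0.28), Spry2 (-0.33) and Etv5 (-0.45) had adjusted p between 0.000736 and 0.00337 and folds under 1.5. Erbb3 overlapped between the groups, at 298, 258 and 271 CPM and 245, 271 and 245 CPM (-0.12 ± 0.07, adjusted p = 0.181).

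The responses in Wnt3-CM and in standard medium were then compared in a fit of the 12 libraries of day 10. The 4-OHT response was lower in Wnt3-CM for 3 of 9 members, when 13.3% of 14337 genes differed and 6.21% were lower. They were Areg (-1.57 ± 0.25, adjusted p = 0.000909), Hbegf (-1.22 ± 0.17, adjusted p = 3.07e-05) and Dusp6 (-0.98 ± 0.18, adjusted p = 0.00121) by edgeR on the log2 scale. Egfr (-0.45 ± 0.14, adjusted p = 0.0213) and Spry2 (-0.56 ± 0.13, adjusted p = 0.00255) stayed under the fold cutoff. Spry2 passed it without replicate 2 (-0.63) or 3 (-0.61) of 4-OHT in standard medium, replicate 1 of EtOH in Wnt3-CM (-0.60) or replicate 1 of 4-OHT in Wnt3-CM (-0.59). The Spry4 difference, -0.68 ± 0.28, had an adjusted p of 0.0747, and it was called without replicate 3 of EtOH in standard medium (-0.86, adjusted p = 0.0355) and with replicate numbers as a block within each table (-0.68, adjusted p = 0.0445). Etv5 differed by 0.11 ± 0.13 (adjusted p = 0.585), its levels being close in both media.

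The EtOH levels themselves differed between media: 5 of 9 members were higher in Wnt3-CM than in standard medium, with 0 lower, when 23.3% of genes were called and 11.8% were higher. In the scaling of this fit Areg stood at 314, 366 and 342 CPM in Wnt3-CM and at 23.6, 34.5 and 41.8 CPM in standard medium. That is 10.2-fold, or 3.36 ± 0.18 on the log2 scale (edgeR, adjusted p = 5.05e-08). Dusp6 was 3.97-fold higher (221, 230 and 224 CPM against 62.4, 54.5 and 53.4 CPM) and Spry4 3.70-fold (6.49, 7.24 and 7.61 CPM against 1.46, 1.93 and 2.39 CPM). Hbegf was 3.17-fold higher and Egfr 1.98-fold, with adjusted p of 9.09e-10 and 6.82e-08. Spry2 (0.11) and Etv5 (-0.10) overlapped between media. After 4-OHT in Wnt3-CM, Areg at 64.0 to 77.4 CPM and Dusp6 at 76.7 to 91.6 CPM were still above all EtOH libraries in standard medium. The media were deposited in separate tables, and whether they were cultured and sequenced together is not given in the sources used here, so medium and table cannot be told apart.

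**Figure D2:**
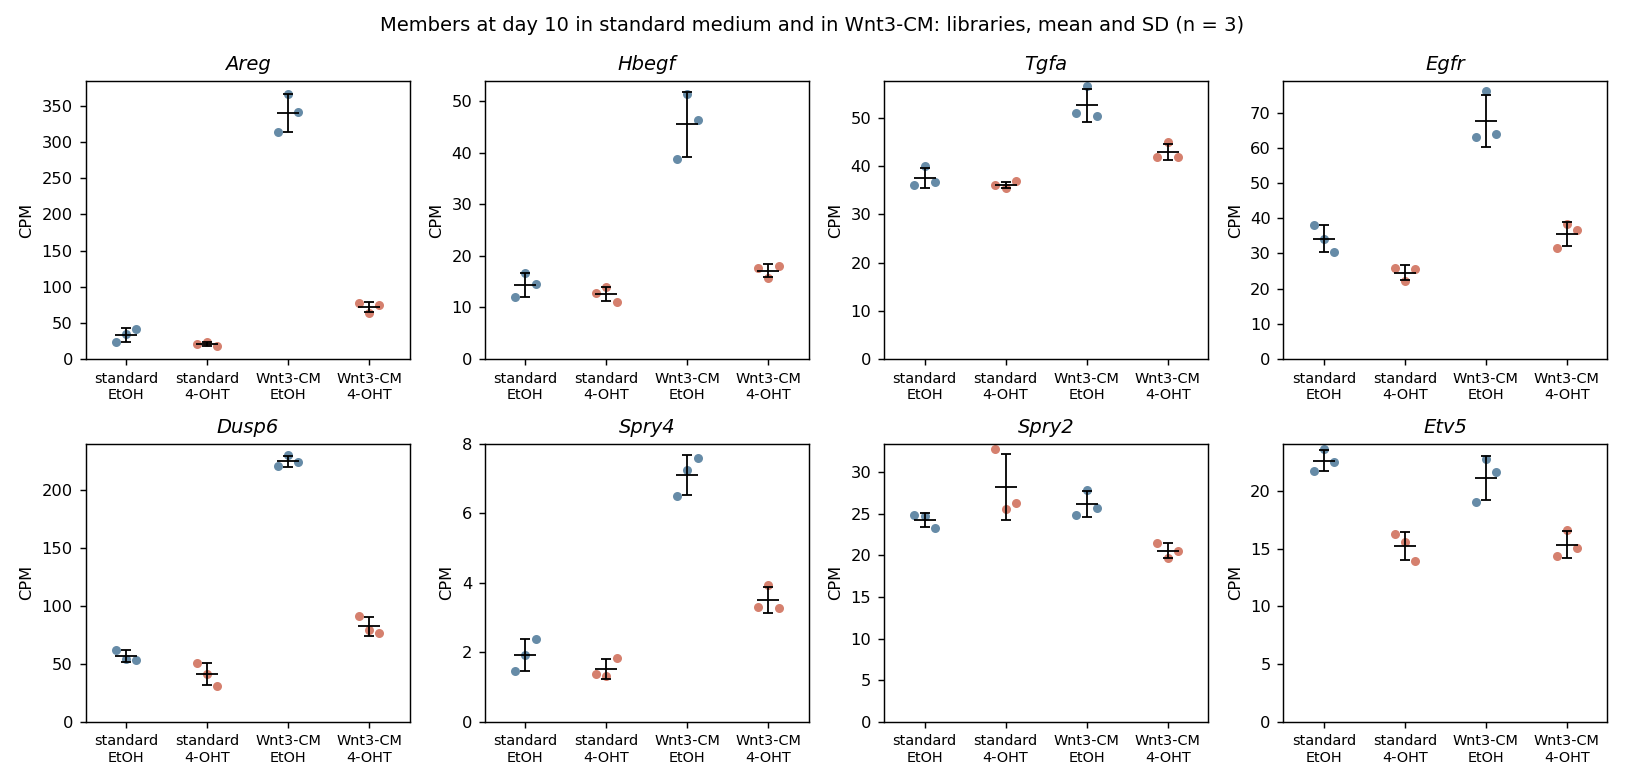
CPM (vertical axes) of 8 members at day 10 in EtOH and 4-OHT libraries of standard medium and Wnt3-CM (horizontal axes), with points for libraries and bars for the mean and SD of 3. Areg, Hbegf, Egfr, Dusp6 and Spry4 are highest in Wnt3-CM with EtOH, while Spry2 and Etv5 lie at like levels in EtOH of both media.

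Paneth markers summed to 6886 to 7621 CPM in EtOH and 1906 to 2341 CPM in 4-OHT of Wnt3-CM, and tuft markers to 18.7 to 22.8 CPM and 1.99 to 2.62 CPM. Goblet markers were at 2517 to 3051 CPM and 1728 to 1815 CPM, and epithelial markers at 13162 to 13647 CPM and 10184 to 10973 CPM. Enteroendocrine markers were low, at 11.1 to 15.3 CPM in EtOH and 8.23 to 10.4 CPM in 4-OHT. Stem markers were at 1069 to 1220 CPM in EtOH and 1099 to 1338 CPM in 4-OHT, with overlapping ranges. Markers also differed between the media in EtOH, in the scaling of the joint fit. Stem markers summed to 1090 to 1232 CPM in Wnt3-CM and 3114 to 3373 CPM in standard medium, proliferation markers to 653 to 682 CPM and 1042 to 1108 CPM, and tuft markers to 19.0 to 23.1 CPM and 4.57 to 5.94 CPM. Paneth and goblet sums were lower in Wnt3-CM, at 7019 to 7727 CPM against 8277 to 8487 CPM and at 2566 to 3093 CPM against 3461 to 3746 CPM. Epithelial sums were higher there, at 13295 to 13837 CPM against 8358 to 8726 CPM. Enterocyte sums overlapped. The part of these cells in the members' falls and in their levels in EtOH was not tested.

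Among the pathway lists in Wnt3-CM, 2 genes rose and 11 fell of 51 tested, beside 16.9% of all genes called and 7.42% that fell. Of 15 ERK feedback and output genes 1 rose and 9 fell, with a median log2 fold change of -0.68. Epha2 (-1.58 ± 0.07) and Fosl1 (-1.55 ± 0.16), which had risen at day 3 in standard medium, were among them. Btc, which encodes the EGFR ligand betacellulin, fell from a mean of 103 CPM to 21.2 CPM (-2.29 ± 0.09, edgeR, adjusted p = 2e-13), and Nrg4 rose by 0.86 ± 0.26. Spred3, a Sprouty-related gene, also rose, from 0.684 to 1.16 CPM. In EtOH, Wnt3-CM against standard medium gave 12 rises and 2 falls over the lists, beside 23.3% of all genes called and 11.8% that rose. Fosl1 (2.50 ± 0.17), Btc (2.49 ± 0.14) and Epha2 (2.24 ± 0.09) rose most, and Nrg4 (-2.26 ± 0.20) and Lrig1 (-0.79 ± 0.06), a brake on ERBB receptors, fell. The 4-OHT response in Wnt3-CM was lower than in standard medium for 7 of 51 genes, among them Btc (-1.77 ± 0.21) and Errfi1 (-1.28 ± 0.09), whose product inhibits EGFR, and higher for 1, Lrig1 (0.68 ± 0.08). Over all genes 13.3% differed in this response and 6.21% were lower.

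The 5 lines at day 7 after 4-OHT were set up to compare single and combined loss of the kinases. Areg and Spry4 were lower in the CDK8iIEC-KO/Cdk19-/- line than in VillinCreERT2, Dusp6 was lower in the CDK8iIEC-KO line, and in the Cdk8 fl/fl/Cdk19-/- line no member other than Ereg was called. Each genotype was 1 line without EtOH libraries, and the 2 control lines themselves differed in 26.4% of genes, so genotype and line cannot be told apart in these comparisons. Against VillinCreERT2, 2 of 10 members were lower in CDK8iIEC-KO (7.23% of 15125 genes called, 4.34% lower) and 3 of 10 were lower in CDK8iIEC-KO/Cdk19-/- (19.4% called, 7.95% lower). Against C57BL/6, 1 of 10 was higher in Cdk8 fl/fl/Cdk19-/- (5.25% called, 2.86% higher). The double knockout had 1 lower member against Cdk8 fl/fl/Cdk19-/- (10.6% called, 4.26% lower) and 4 lower against CDK8iIEC-KO (20.4% called, 8.65% lower). In the time course at day 7, where a line of the same genotype was compared with its own EtOH libraries, neither Areg nor Spry4 was called. Those EtOH libraries were labelled as lacking Cdk19, unlike VillinCreERT2.

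Areg was at 49.7, 53.2 and 42.2 CPM in VillinCreERT2 and at 41.1, 44.2 and 49.6 CPM in CDK8iIEC-KO, which overlapped (-0.11 ± 0.08, edgeR, adjusted p = 0.357). It was at 37.0, 39.2 and 36.2 CPM in Cdk8 fl/fl/Cdk19-/- and at 30.3, 35.7 and 31.2 CPM in C57BL/6 (0.21 ± 0.09, adjusted p = 0.12). In CDK8iIEC-KO/Cdk19-/- it was at 20.3, 22.7 and 19.8 CPM, below every library of the other lines. The fall was -1.21 ± 0.09 against VillinCreERT2 (adjusted p = 2.88e-11), -0.84 ± 0.09 against Cdk8 fl/fl/Cdk19-/- (adjusted p = 5.96e-08) and -1.10 ± 0.09 against CDK8iIEC-KO (adjusted p = 1.56e-10). With the mean of both control lines as control the first became -0.92 (adjusted p = 6.52e-10), and the value for CDK8iIEC-KO turned to 0.18 (adjusted p = 0.0491, fold under 1.5).

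Ereg, which encodes epiregulin, was the least even member across lines. VillinCreERT2 libraries were at 13.8, 22.4 and 9.35 CPM, CDK8iIEC-KO at 3.84, 4.26 and 4.92 CPM, and CDK8iIEC-KO/Cdk19-/- at 1.60, 1.98 and 1.49 CPM. Cdk8 fl/fl/Cdk19-/- was at 1.33, 1.28 and 1.57 CPM, and C57BL/6 had 0 counts in all 3 libraries. The log2 fold change was -1.81 ± 0.26 for CDK8iIEC-KO (adjusted p = 0.000257) and -3.16 ± 0.32 for the double knockout (adjusted p = 3.7e-06) against VillinCreERT2. Against CDK8iIEC-KO the double knockout was lower by 1.36 ± 0.36 (adjusted p = 0.00711). Against a floor of 3 counts per library in C57BL/6, the level in Cdk8 fl/fl/Cdk19-/- was at least 7.80-fold higher, and C57BL/6 was at least 85.0-fold lower than VillinCreERT2. These directions rest on which control line is used: with the mean of both controls the fitted values were 3.78 for CDK8iIEC-KO (adjusted p = 0.00333) and 2.42 for the double knockout (adjusted p = 0.112). Their size depends on how the 0 counts of C57BL/6 are handled and is no measure of a fold. The line of the time course, with 0 to 2 Ereg counts per library, was also at or near 0.

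Hbegf was lower in the double knockout, at 7.95, 9.14 and 7.75 CPM, than in VillinCreERT2 at 9.97, 11.9 and 10.9 CPM (-0.40 ± 0.12, edgeR, adjusted p = 0.00693, fold under 1.5). Tgfa did not separate the double knockout from VillinCreERT2 (-0.03 ± 0.07, adjusted p = 0.768), though with the mean of both control lines its value was 0.27 (adjusted p = 0.000486, fold under 1.5). It did separate the control lines, at 34.4, 33.3 and 29.2 CPM in C57BL/6 and 47.0, 51.9 and 46.5 CPM in VillinCreERT2 (-0.59 ± 0.07, adjusted p = 5.76e-08). This call was lost with upper-quartile scaling (-0.50), without replicate 3 of C57BL/6 (-0.52) or without replicate 2 of VillinCreERT2 (-0.54). Between these control lines 2 of 10 members were called, Tgfa and Ereg, both lower in C57BL/6, beside 26.4% of genes called and 10.9% that were lower. Areg differed between them too (-0.58 ± 0.09, adjusted p = 2.4e-06), just under the fold cutoff.

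Of the receptors, neither was called in any of these comparisons. Erbb3 lay between 231 and 320 CPM over the 15 libraries and Egfr between 25.3 and 36.0 CPM. Egfr was lower in the double knockout, at 25.3, 26.4 and 26.6 CPM, than in CDK8iIEC-KO at 34.2, 36.0 and 30.5 CPM (-0.36 ± 0.09, edgeR, adjusted p = 0.000882, fold under 1.5). Erbb3 ran the other way, with 320, 311 and 278 CPM against 231, 241 and 233 CPM (0.37 ± 0.06, adjusted p = 5.94e-06, fold under 1.5).

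Dusp6 was lowest in the CDK8iIEC-KO line. It was at 21.4, 21.1 and 24.2 CPM there and at 45.2, 46.6 and 47.9 CPM in VillinCreERT2, a fall of -1.07 ± 0.07 (edgeR, adjusted p = 3.4e-11). In the double knockout it was at 35.0, 32.1 and 32.7 CPM, between these lines and overlapping Cdk8 fl/fl/Cdk19-/- at 36.8, 34.7 and 31.2 CPM. The double knockout was thus above CDK8iIEC-KO by 0.58 ± 0.07 (adjusted p = 3.45e-07), just under the fold cutoff, which it passed with upper-quartile scaling (0.62), with DESeq2 (0.59), with only these groups fitted (0.59) and without replicate 3 of CDK8iIEC-KO (0.64) or replicate 2 (0.60) or 3 (0.61) of the double knockout. Spry4 was at 1.88, 2.03 and 1.33 CPM in the double knockout, below VillinCreERT2 at 3.46, 2.93 and 2.70 CPM (-0.80 ± 0.20, adjusted p = 0.00189) and CDK8iIEC-KO at 3.98, 3.20 and 2.83 CPM (-0.94 ± 0.20, adjusted p = 0.000291). Against Cdk8 fl/fl/Cdk19-/-, at 2.32, 2.15 and 2.91 CPM, the Spry4 difference of -0.50 ± 0.22 had an adjusted p of 0.0781. Spry2 was higher in the double knockout, at 28.3, 26.5 and 24.5 CPM, than in VillinCreERT2 at 20.6, 20.2 and 20.6 CPM, with a fold under 1.5 (0.37 ± 0.07, adjusted p = 0.000116).

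Etv5 was highest in CDK8iIEC-KO, at 22.6, 20.8 and 17.3 CPM, against 15.3, 15.6 and 15.9 CPM in VillinCreERT2 (0.37 ± 0.09, edgeR, adjusted p = 0.00306, fold under 1.5). In the double knockout it was at 10.6 to 12.1 CPM, lower than CDK8iIEC-KO by 0.80 ± 0.10 (adjusted p = 1.31e-07) and lower than VillinCreERT2 by 0.43 ± 0.10 with a fold under 1.5 (adjusted p = 0.000781). Whether the double knockout departed from the sum of the single losses was tested on the log2 scale, and 5 of 10 members departed beside 19.6% of genes. This contrast spans 4 lines, with C57BL/6 as the control of one of them, so a departure and a difference between lines cannot be told apart. Areg (-1.31 ± 0.13), Spry4 (-1.05 ± 0.29) and Etv5 (-0.67 ± 0.14) were lower than the sum, with adjusted p of 9.66e-09, 0.0049 and 0.000508. Dusp6 was higher (0.88 ± 0.10, adjusted p = 2.59e-07), and Ereg was lower, with a fitted value that rests on the 0 counts of C57BL/6 and is no measure of size. The Etv5 value was -0.58 and under the fold cutoff without replicate 1 of CDK8iIEC-KO.

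**Figure D3:**
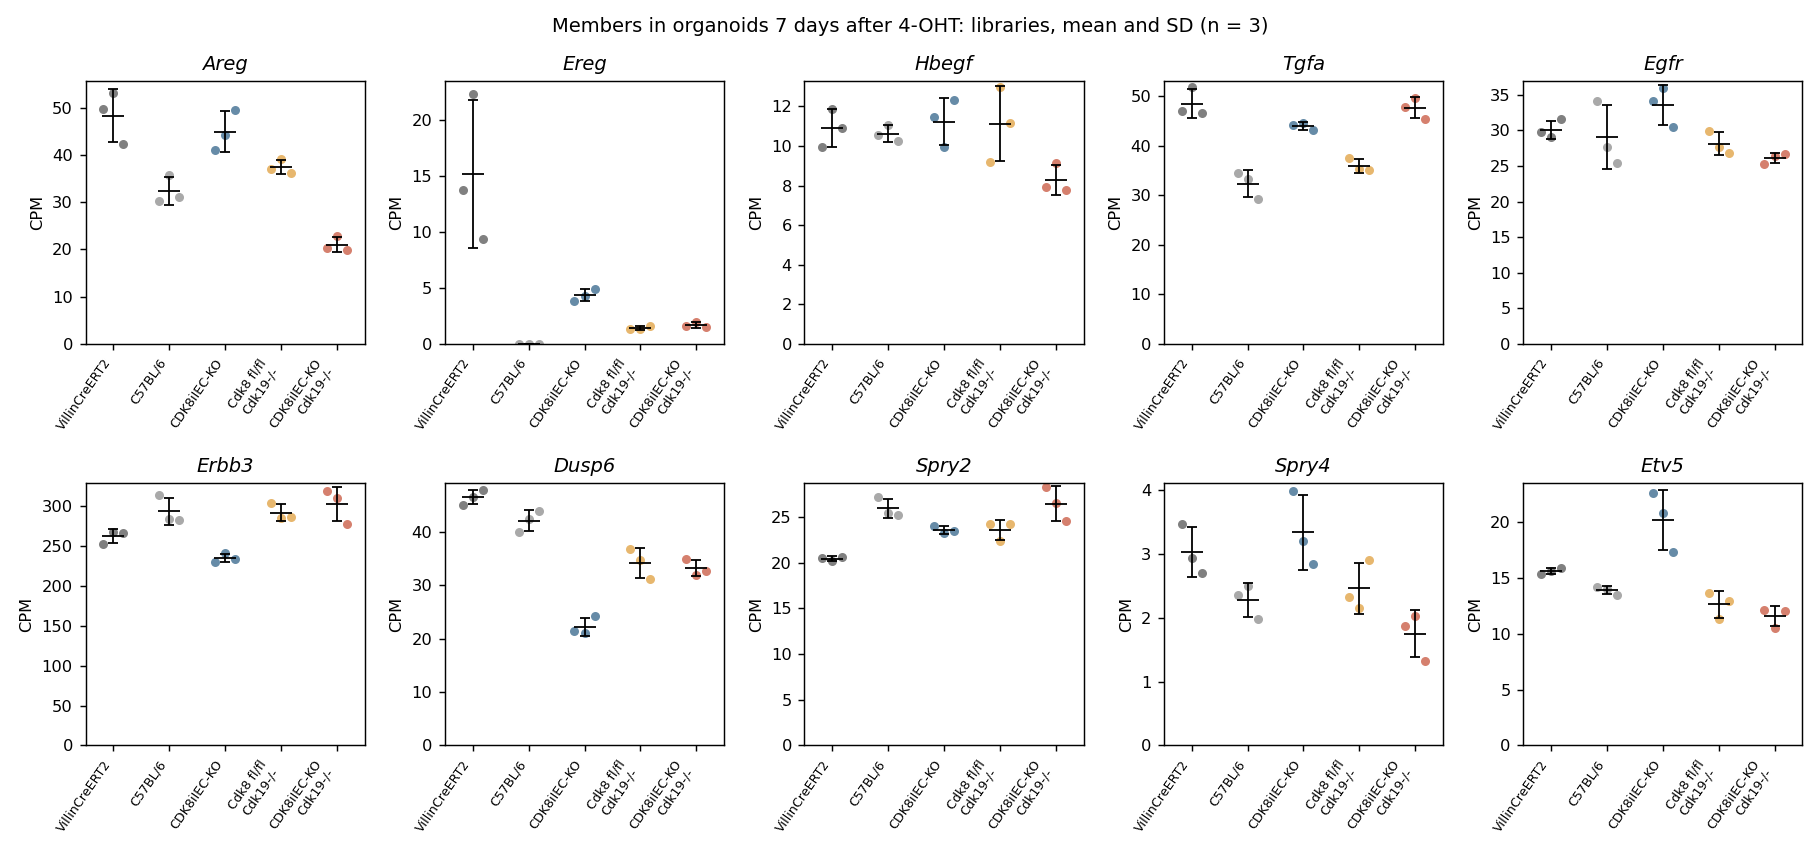
CPM (vertical axes) of the 10 members in 5 organoid lines 7 days after 4-OHT (horizontal axes), with points for libraries and bars for the mean and SD of 3. Areg and Spry4 are lowest in the double knockout, Dusp6 is lowest in CDK8iIEC-KO, and Ereg is at 0 in C57BL/6.

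Cell type markers also differed between these lines. Paneth markers summed to 859 to 897 CPM in the double knockout, 2798 to 2916 CPM in VillinCreERT2, 2456 to 2660 CPM in CDK8iIEC-KO and 4982 to 6188 CPM in C57BL/6. Stem markers summed to 430 to 585 CPM in the double knockout and 1190 to 1421 CPM in VillinCreERT2. Goblet markers (2081 to 2264 CPM against 3206 to 3413 CPM), tuft markers (3.09 to 4.40 CPM against 17.6 to 19.1 CPM), enteroendocrine markers (187 to 197 CPM against 282 to 287 CPM) and enterocyte markers (23452 to 26223 CPM against 26584 to 32190 CPM) were also lower in the double knockout without overlap. In Cdk8 fl/fl/Cdk19-/- Paneth markers were at 4004 to 4407 CPM, stem markers at 782 to 928 CPM, tuft markers at 19.7 to 20.9 CPM, enteroendocrine markers at 442 to 453 CPM and goblet markers at 2362 to 2708 CPM, all above the double knockout. Proliferation markers there were at 1078 to 1100 CPM against 800 to 907 CPM in the double knockout, epithelial markers at 8049 to 8405 CPM against 6911 to 7569 CPM, and enterocyte sums overlapped. In CDK8iIEC-KO, where Dusp6 was lowest, stem markers overlapped VillinCreERT2 at 1192 to 1582 CPM. Enterocyte markers summed to 17596 to 19073 CPM in CDK8iIEC-KO and 26584 to 32190 CPM in VillinCreERT2, goblet markers to 2283 to 2477 CPM and 3206 to 3413 CPM, tuft markers to 14.5 to 14.9 CPM and 17.6 to 19.1 CPM, and proliferation markers to 1054 to 1165 CPM and 856 to 917 CPM, each without overlap. Their part in the members' differences was not tested.

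Over the pathway lists, 0 of 52 genes rose and 8 fell in the double knockout against VillinCreERT2, beside 19.4% of all genes called and 7.95% that fell. Of the 8, 6 were among 16 ERK feedback and output genes. Epha4 (-0.96 ± 0.17), the cyclin gene Ccnd1 (-0.96 ± 0.07) and the ERK phosphatase gene Dusp5 (-0.73 ± 0.07) fell most. Ccnd1 had a mean of 65.8 CPM in the double knockout, 128 CPM in VillinCreERT2, 105 CPM in Cdk8 fl/fl/Cdk19-/- and 143 CPM in CDK8iIEC-KO. In CDK8iIEC-KO against VillinCreERT2 edgeR called 0 of 52, beside 7.23% of all genes, with 22 at an unadjusted p under 0.05, as were 40.1% of all genes. In Cdk8 fl/fl/Cdk19-/- against C57BL/6 1 rose, Fosl1 (1.17 ± 0.32), beside 5.25% of all genes called and 2.86% that rose. The control lines themselves differed in 10 of 52, beside 26.4% of all genes called and 10.9% lower in C57BL/6. In C57BL/6, 2 of the 10 were higher and 8 lower, among them Fosl1 (-1.94 ± 0.28) and Dusp5 (-0.96 ± 0.07).

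In Cdk19 ko/D173A organoids, the comparison asks what 4-OHT, with Cre activation and loss of CDK8, does where a kinase-dead CDK19 remains. At day 7, 1 of 9 members rose after 4-OHT, beside 12.3% of 15457 genes called and 6.05% that rose. Areg rose from 25.6, 32.3 and 31.9 CPM in EtOH to 40.4, 49.1 and 50.3 CPM, without overlap (0.64 ± 0.11, edgeR, adjusted p = 0.00241). Its fold fell under the cutoff without replicate 1 of EtOH (0.51) or replicate 3 of 4-OHT (0.58). The columns of these libraries were tied to their groups by elimination, which limits how firmly the labels hold.

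The other members moved little there. Tgfa went from 31.7, 36.4 and 36.5 CPM to 40.7, 42.2 and 41.3 CPM (0.25 ± 0.08, edgeR, adjusted p = 0.0395) and Etv5 from 13.8, 16.8 and 15.1 CPM to a mean of 12.2 CPM, below all of these (-0.32 ± 0.11, adjusted p = 0.0435), each with a fold under 1.5. Erbb3 was at 449, 475 and 471 CPM in EtOH and 396, 444 and 418 CPM in 4-OHT (-0.15 ± 0.06, adjusted p = 0.115). Dusp6 had 1 library in each group well above the others, at 72.8, 48.3 and 44.9 CPM and 66.1, 45.6 and 48.3 CPM (-0.05 ± 0.24, adjusted p = 0.896). Those high libraries carry the same number in their column names. Hbegf was at 12.1, 12.7 and 13.4 CPM in EtOH and 13.6, 14.9 and 15.1 CPM in 4-OHT (0.19 ± 0.10, adjusted p = 0.174). Spry4 was at 2.51 to 2.92 CPM and 2.11 to 2.23 CPM (-0.29 ± 0.17, adjusted p = 0.242). Egfr (-0.03 ± 0.09, adjusted p = 0.824) and Spry2 (0.08 ± 0.08, adjusted p = 0.503) overlapped between the groups.

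Against the response of Cdk19 ko/ko organoids at day 7, fitted together, 2 of 9 members differed, beside 11.1% of 15636 genes. The Areg response was higher with D173A by 0.93 ± 0.20 (edgeR, adjusted p = 0.00432): Areg rose there, while in Cdk19 ko/ko it went from 35.6, 40.6 and 42.5 CPM to 24.9, 35.1 and 36.9 CPM in the scaling of this fit. The Erbb3 response was lower with D173A by 0.86 ± 0.13 on the log2 scale (adjusted p = 0.000328). In Cdk19 ko/ko Erbb3 went from 216, 244 and 205 CPM to 386, 400 and 306 CPM, and with D173A from 443, 468 and 464 CPM to 391, 438 and 412 CPM. The EtOH levels of Erbb3 thus already differed between the lines. Genotype, line and table cannot be told apart in this comparison. Paneth markers in D173A organoids summed to 3398 to 3615 CPM in EtOH and 1724 to 2052 CPM in 4-OHT, and enteroendocrine markers to 714 to 775 CPM and 244 to 267 CPM. Stem markers were at 791 to 901 CPM and 431 to 480 CPM, proliferation markers at 630 to 710 CPM and 475 to 563 CPM, tuft markers at 40.7 to 44.5 CPM and 9.54 to 12.3 CPM, and enterocyte markers at 28284 to 34823 CPM and 39884 to 40388 CPM. Their part in the members' levels was not tested. Over the pathway lists 1 of 52 genes was called, Spred3 (-1.31 ± 0.23), beside 12.3% of all genes. The response differed from Cdk19 ko/ko for 3, beside 11.1% of all genes. All 3 were lower with D173A: Spred3 (-1.38 ± 0.37), Erbb2 (-0.67 ± 0.10) and Ier3 (-0.63 ± 0.21).

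**Figure D4:**
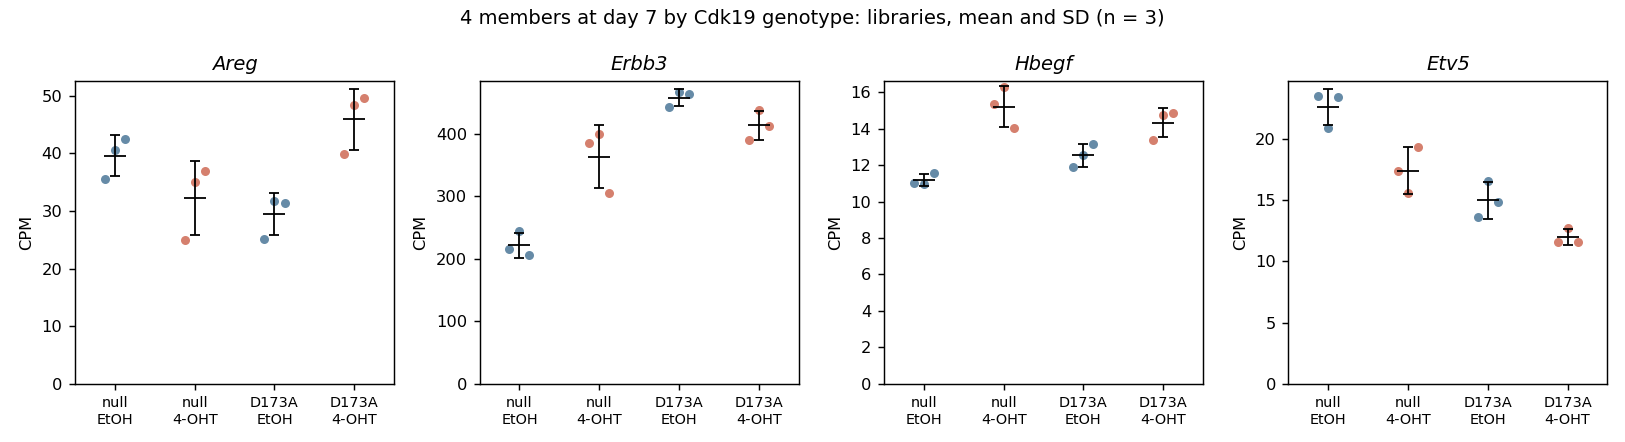
CPM (vertical axes) of 4 members at day 7 in EtOH and 4-OHT libraries of Cdk19 ko/ko (null) and Cdk19 ko/D173A organoids (horizontal axes), with points for libraries and bars for the mean and SD of 3. Areg is higher in every 4-OHT library than in EtOH for D173A and overlaps in null organoids, while Erbb3 is higher after 4-OHT in null organoids and did not pass the test in D173A (-0.15, adjusted p = 0.115).

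In IECs taken from mice 14 days after tamoxifen, none of the 10 members was called between VillinCreERT2; Cdk8 fl/fl; Cdk19 ko/ko and VillinCreERT2, by edgeR or by DESeq2, beside 1.5% of 15182 genes by edgeR. At an unadjusted p under 0.05 there were 3 of 10, beside 19.9% of all genes. Erbb3 was lower, at 268, 426 and 367 CPM against 492, 465 and 577 CPM (-0.53 ± 0.18, adjusted p = 0.183). Etv5 was higher, at 4.37, 4.23 and 2.65 CPM against 2.14, 2.50 and 1.39 CPM (0.90 ± 0.32, adjusted p = 0.19). Spry2 was higher too, at 19.3, 14.6 and 13.6 CPM against 12.7, 10.7 and 9.09 CPM (0.55 ± 0.19, adjusted p = 0.181). For these 3 genes the groups did not overlap, as was the case in 26.8% of all genes tested.

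Areg was low in IECs and overlapped, at 7.20, 5.74 and 8.20 CPM against 14.8, 7.61 and 8.24 CPM (-0.53 ± 0.29, edgeR, adjusted p = 0.342). Ereg was detected in both groups, at 4.42, 3.88 and 2.75 CPM against 7.68, 3.37 and 4.12 CPM (-0.46 ± 0.35, adjusted p = 0.496). Dusp6 spread from 49.4 to 83.6 CPM in knockout IECs and from 62.9 to 112 CPM in controls (-0.31 ± 0.27, adjusted p = 0.545). Spry4 was low, at 2.37, 1.51 and 0.737 CPM against 0.878, 1.03 and 0.321 CPM (1.04 ± 0.57, adjusted p = 0.35). Egfr (-0.02 ± 0.12), Hbegf (-0.18 ± 0.26) and Tgfa (-0.05 ± 0.11) overlapped too, with adjusted p from 0.72 to 0.945. Immune markers summed to 1716, 878 and 879 CPM in the knockout libraries and to 77.3, 686 and 107 CPM in the controls, and mesenchymal markers to 974, 607 and 459 CPM and 13.8, 887 and 56.2 CPM. Paneth markers were at 998 to 2200 CPM in the knockout and 3886 to 6419 CPM in the controls, goblet markers at 5157 to 7408 CPM and 12281 to 14642 CPM, stem markers at 315 to 518 CPM and 751 to 1049 CPM, and tuft markers at 34.0 to 63.0 CPM and 99.1 to 133 CPM, each without overlap. Epithelial sums were at 8987 to 9875 CPM and 10674 to 10985 CPM. Without control replicate 2, which held the high sums, still 0 members were called, with Etv5 at 1.09 (adjusted p = 0.0991) and Erbb3 at -0.58 (adjusted p = 0.161), while the number of all genes called went from 228 to 1566. The part of these cells in the members' levels was not tested. Over the pathway lists edgeR called 0 of 52 genes, beside 1.5% of all genes, with 11 at an unadjusted p under 0.05, as were 19.9% of all genes.

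**Figure D5:**
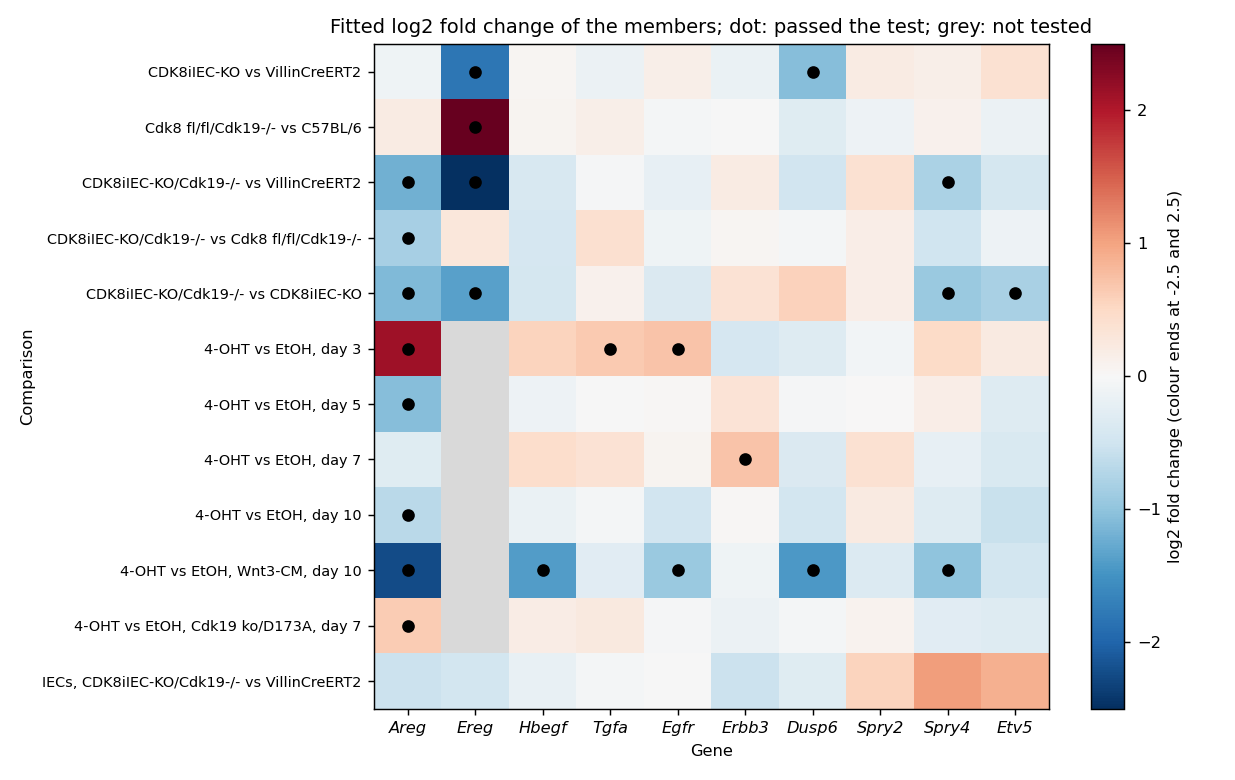
Fitted log2 fold change (colour, ending at -2.5 and 2.5) of the 10 members (horizontal axis) in 12 comparisons (vertical axis). Dots mark values that passed the test and grey marks Ereg where it was too low to test; Areg has a dot in 8 of the 12 comparisons.

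Among the genes tested over the 24 libraries of the time course, those whose log2 CPM was most like each member's were listed by Pearson's r, as a description of libraries that share treatment and day. For Areg they were Btc (r = 0.92) and Epha2 (0.92), a fellow ligand and a pathway list gene. For Egfr they were Lrrfip1 (0.91) and Elmo1 (0.90), for Erbb3 Insr (0.93) and Gcnt3 (0.93), for Hbegf Pmaip1 (0.91) and Hsh2d (0.89), and for Tgfa Stim2 (0.96) and Daam1 (0.95). For Spry2 they were Nub1 (0.95) and Rab5b (0.95), for Etv5 Slc1a5 (0.94) and the Wnt target Axin2 (0.93). The nearest genes for Dusp6 (Polr3b, 0.83) and Spry4 (Hs3st3b1, 0.81) had the lowest values. Between members the highest values were those of Tgfa with Spry2 (0.75), Areg with Egfr (0.71), Areg with Hbegf (0.71) and Areg with Etv5 (0.70), and Dusp6 with Tgfa was at -0.56.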

How the data were processed

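RNA-seq of polyadenylated RNA was sequenced as 100 bp paired-end reads. The authors deposited raw counts of reads per gene, not normalized; the submitters' processing notes name STAR 2.5.2, Subread 1.6.3, featureCounts and mm10, and the strand setting is not given in the sources used here. Groups came from the GEO labels, 3 libraries each in 19 groups. The Wnt3-CM columns were tied to groups by name and the D173A organoid columns by elimination, and 6 sample columns that could not be tied to a sample were not used, so IECs with D173A were not analysed here. Depth was 15485959 to 32909565 counts per library.

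Counts were fitted with edgeR 4.0.16 in R 4.3.3 (limma 3.58.1; TMM scaling, filterByExpr, robust quasi-likelihood F test), 1 fit per table with all its groups, or 1 fit of 12 libraries where responses of separate tables were compared. A call needed a Benjamini-Hochberg adjusted p under 0.05 over all genes tested and a fold change over 1.5. SEs were taken from the log2 fold change and its F statistic (their size over the square root of F). CPM are TMM-scaled counts per 1000000, and CPM per kb use exonic length in GENCODE vM21. Folds against groups at 0 counts used a floor of 3 counts per library, which covers counting error only. Alternatives were no filter, upper-quartile scaling, DESeq2 1.42.0, a replicate block (by the number in the column name where columns were tied to a group only, chosen after seeing the data), only the groups compared, the mean of both control lines, and leaving out each library. The fits were also run on simulated counts with independent libraries and known changes. The outcome is not given here, and such counts say nothing of line differences or technical spread.

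The 10 members were fitted in every comparison, and those called, just under a cutoff or needed to read a comparison are given with their values. From 5 pathway lists, at most the 3 largest rises and 3 largest falls among called genes were named, and from the likeness search the 2 genes with the highest r per member, of which 1 is given for Dusp6 and Spry4. The members and lists were chosen with earlier results of these data known. The promoter motifs printed in capitals were chosen after the planned ones had no match.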

Additional observations from a re-analysis of the deposited data

Results flagged for a closer look

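Each value here is a test of the difference between responses itself, on the log2 scale, from the edgeR fit with Benjamini-Hochberg adjustment, and was listed because the difference passed that test. No explanation was weighed.

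In the organoid lines of day 7, where each genotype was 1 line and line and genotype cannot be told apart, the double knockout departed from the sum of the single losses for Areg (-1.31 ± 0.13, adjusted p = 9.66e-09), Dusp6 (0.88 ± 0.10, adjusted p = 2.59e-07), Etv5 (-0.67 ± 0.14, adjusted p = 0.000508) and Spry4 (-1.05 ± 0.29, adjusted p = 0.0049). For Ereg the fitted value was -9.09 (adjusted p = 0.000348), which depends on how 0 counts in C57BL/6 are handled and is no bound. The Etv5 call was lost without replicate 1 of CDK8iIEC-KO (-0.58).

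In the time course, the 4-OHT response changed from day 3 to day 5 for Areg (-3.17), Egfr (-0.68), Hbegf (-0.68), Tgfa (-0.67) and Erbb3 (0.75). From day 5 to day 7 it changed for Areg (0.76), a call lost in 9 of 12 fits that left out 1 library. From day 7 to day 10 it changed for Erbb3 (-0.67) and Hbegf (-0.61), the latter lost without replicate 2 of 4-OHT day 7 (-0.55), replicate 2 of EtOH day 10 (-0.50) or replicate 3 of 4-OHT day 10 (-0.53). From day 3 to day 10 it changed for Areg (-2.78), Egfr (-1.17), Etv5 (-0.78), Hbegf (-0.73) and Tgfa (-0.71).

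Between media at day 10, the 4-OHT response was lower in Wnt3-CM for Areg (-1.57), Hbegf (-1.22) and Dusp6 (-0.98). Between genotypes at day 7 it was higher with Cdk19 ko/D173A for Areg (0.93) and lower for Erbb3 (-0.86). In both pairs the compared groups were in separate tables, so table cannot be told apart from medium or genotype.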

How the results depend on the processing

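Over 233 log2 fold changes of members and 2893 alternative values, 2756 kept their direction and their side of the thresholds, 23 lost the call and 40 gained one. Of 74 values that changed sign, 69 had an adjusted p of 0.05 or over both as reported and in the alternative. The other 5 came with the mean of both control lines: Ereg 3.78, Areg 0.18 (adjusted p = 0.0491) and Tgfa 0.15 (adjusted p = 0.0416) in CDK8iIEC-KO, and Ereg 2.42 and Tgfa 0.27 (adjusted p = 0.000486) in the double knockout. In these alternatives C57BL/6, where Ereg is at 0 and Areg and Tgfa are lower than in VillinCreERT2, enters the control, and the 2 Ereg values are no measure of size. With upper-quartile scaling the number of members called was 1 between C57BL/6 and VillinCreERT2 (2 in the reported fit) and 0 for the change of the response from day 5 to day 7 (1 in the reported fit), and it was 6 for the change from day 3 to day 10 (5 in the reported fit), 5 between the double knockout and CDK8iIEC-KO (4) and 4 at day 3 (3). Leaving out 1 library gave 1 to 3 members between the control lines, 0 to 3 at day 10, 0 to 2 for the change from day 5 to day 7, 1 to 3 for that from day 7 to day 10, 0 to 1 for EtOH day 10 against day 3 and 0 to 1 for D173A.

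Over all genes, the IEC comparison called 228 genes, against 1103 without the filter, 859 with DESeq2, 8 with the replicate block and 3 to 1566 with 1 library left out. The share of higher calls there was 43.0% as reported, 59.5% without the filter, 58.7% with DESeq2 and 75% with the block. It was 84.4% of 1566 calls without replicate 2 of VillinCreERT2 and 35.5% of 572 without replicate 2 of the double knockout. EtOH day 7 against day 5 called 88 genes, against 184 without the filter, 139 with DESeq2, 12 with only the groups compared and 3 to 164 with 1 library left out. The cause was not tested. Same-numbered libraries were taken as paired where every pair's deviations from the group means correlated over 0.1. No comparison met this, and no pairing was assumed. Wnt3-CM (0.0951 to 0.222) and D173A (0.095 to 0.379) came close. Each same-numbered pair exceeded all other pairs in Wnt3-CM, between the control lines and between the double knockout and Cdk8 fl/fl/Cdk19-/-, so a shared origin of such libraries is not shown to be absent. In IECs the correlations ran from -0.41 to 0.21. The replicate block, which for Wnt3-CM and D173A used the number in the column name and was chosen after seeing the data, changed 1 member call: Spry4 in the difference between media (-0.68, adjusted p = 0.0445), where 4 members were called in place of 3. Comparisons of IECs with D173A were not run. Few counts limit what can be said of Ereg and Spry4.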
